A study of Mus musculus with 11 samples.

Results

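The Krüppel-like factors (KLFs) with a described part in fat cell formation were followed in cultured preadipocytes and adipocytes. The 10 genes Klf2, Klf3, Klf4, Klf5, Klf6, Klf7, Klf9, Klf11, Klf13 and Klf15 were taken by symbol from 29955 gene symbols, 17 of which are Klf genes. The choice used no rule on their levels, but earlier results of these data were known when it was made. KLFs are zinc finger transcription factors that bind GC-rich and CACCC sequences. In textbook accounts of adipogenesis some members (Klf4, Klf5, Klf6, Klf9, Klf13, Klf15) act at successive steps to turn on the C/EBP factors and Pparg or to relieve their inhibition, whereas others (Klf2, Klf3, Klf7) hold preadipocytes back. Members differ in their amino-terminal parts, through which some recruit corepressors such as CtBP or SIN3A and others recruit coactivators.

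The cells were im-scWAT, a mouse preadipocyte line from inguinal subcutaneous white fat that carries SV40 large T antigen, and mRNA was measured by RNA-seq in 11 samples. Of these, 6 were untransduced cells at day 0, day 4 and day 8 of differentiation, 1 sample each with and without 0.5 µM rosiglitazone (ROS), a PPARγ ligand that is used to obtain beige-like rather than white-like adipocytes. ROS was first added when differentiation was induced, at day 0, so the 2 day 0 samples had not been treated differently and were used as a pair. The induction medium of both arms held dexamethasone, 3-isobutyl-1-methylxanthine, indomethacin, insulin and T3, and the later medium held insulin and T3. The other 5 samples were transduced cells at day 8 of the ROS protocol. All 5 carried an shRNA against mouse Jmjd1a (Kdm3a), which encodes an H3K9me2 demethylase, driven by a U6 promoter, together with a retroviral human JMJD1A under drug selection. This was wild type in 2 samples (WT A and WT B), S265A (the serine phosphorylated by PKA changed to alanine) in 1, S265D (a phosphomimetic change) in 1, and S265D-H1120Y (the same with a catalytically dead enzyme) in 1. Everything came from 1 immortalized line, and nothing says whether samples came from separate cultures, so p-values measure the spread between these samples. The labels place the removal of ROS at day 7, whereas the study's methods keep it to day 8 in these cells.

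Levels are FPKM, mapped bases per kb of exon and Mb of all mapped bases, as deposited. Mapped bases came to between 3.10 and 5.29 Gb per sample, at which 100 bases on a 2 kb mRNA give an FPKM of 0.00944 to 0.0161. The adipocyte label of days 4 and 8 held against its markers: all 6 adipocyte genes tested (Adipoq, Fabp4, Plin1, Cidec, Cfd, Lpl) rose from day 0. The FPKM of Adipoq was 0.121 and 0.0519 at day 0 and 396.5 to 1291 in the other 9 samples. The leukocyte genes Ptprc and Emr1 were listed at 0 in all 11 samples, as were 3 skeletal muscle genes. The endothelial genes Cdh5 and Tie1 did not pass 0.0112. Other genes of these lists were higher: Cd68 of the leukocyte list was at 0.541 to 21.7, and the endothelial gene Pecam1 reached 3.465. Of the smooth muscle genes, Acta2 was at 131 and 140 at day 0, while Myh11 was at 0.0226 and 0.00653 there. The 2 WT samples stood far apart: 16.4% of 15837 genes were at least 2-fold higher and 10.8% at least 2-fold lower in WT B than in WT A. The day 0 pair differed less, with 2.96% of 15030 genes at least 2-fold higher and 1.94% at least 2-fold lower in the sample of the ROS arm, and none of the 10 members among them.

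The 250 bases upstream of each annotated start were read from the mm9 genome to show what the promoters of these genes have in common. All 10 were GC-rich, with 59.2 to 78.8% G+C against a median of 56.4% over 20036 coding promoters, and held 13 to 41 CpG against a median of 11. The palindromic E-box CACGTG occurred upstream of Klf4, Klf6, Klf11 and Klf15, 4 of 10, while 6.9% of all promoters held it. The CACCC box to which KLFs themselves can bind occurred, on either strand, in 7 of 10 against 53.5% of all. The 3 promoters shown are that of Klf15, the gene that rose most, which held 2 E-boxes, at 222 and 53 bases upstream of the start, and 1 CACCC box; that of Klf3, the most abundant member at day 0, which held 5 CACCC boxes; and that of Klf4, the gene that fell most, which held 1 E-box and no CACCC box. Their positions in mm9 are chr6:90412370-90412619 on the plus strand for Klf15, chr5:65194512-65194761 on the plus strand for Klf3 and chr4:55545348-55545597 on the minus strand for Klf4. Capitals mark the E-box and, on either strand, the CACCC box, and each sequence runs 5′ to 3′ on the strand of its gene.
Klf15: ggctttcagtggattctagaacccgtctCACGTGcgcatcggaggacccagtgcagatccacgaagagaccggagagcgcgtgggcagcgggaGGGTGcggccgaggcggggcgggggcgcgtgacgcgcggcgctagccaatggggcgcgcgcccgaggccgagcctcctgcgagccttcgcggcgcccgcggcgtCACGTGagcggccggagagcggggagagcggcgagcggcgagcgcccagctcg
Klf3: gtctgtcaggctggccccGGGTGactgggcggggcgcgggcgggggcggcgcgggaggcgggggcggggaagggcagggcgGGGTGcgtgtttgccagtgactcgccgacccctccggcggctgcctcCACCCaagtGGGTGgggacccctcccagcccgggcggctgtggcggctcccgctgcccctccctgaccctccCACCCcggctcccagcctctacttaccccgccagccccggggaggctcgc
Klf4: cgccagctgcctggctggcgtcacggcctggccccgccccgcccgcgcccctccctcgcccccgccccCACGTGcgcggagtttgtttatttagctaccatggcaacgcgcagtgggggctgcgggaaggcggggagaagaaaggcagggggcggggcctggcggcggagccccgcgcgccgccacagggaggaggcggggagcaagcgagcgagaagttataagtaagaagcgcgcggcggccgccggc
Among other letters searched on both strands, the GC box GGGCGG was present in 8 of 10 members and 45.7% of all promoters. CCAAT was present in 6 and 35.2%, and TGACG, the core of the cAMP response element, in 6 and 21.4%. TATAAA (11.7% of all) and AGAACA (13.1% of all), the core of the glucocorticoid response element, were in none of the 10 windows. GC boxes share letters with the G+C content itself, and the letters were chosen after the Klf15 promoter had been seen, so these shares are descriptions.

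The 10 genes split during differentiation. Klf15, Klf9 and Klf13 rose by day 4, Klf11 had joined them at day 8, and Klf3, Klf4, Klf5 and Klf7 were below day 0 at both times. Klf2 and Klf6 fell at day 4, and at day 8 their difference from day 0 did not pass the test. Differences were tested with limma on log2(FPKM + 0.1) in the 6 untransduced samples, with the 2 samples of a day as replicates and a common ROS effect for days 4 and 8, and p-values were adjusted by Benjamini-Hochberg over 15201 genes (called under 0.05). At day 4 against day 0, 25.1% of genes tested were called higher and 22.7% lower, compared with 3 and 6 of the 10 members. At day 8 against day 0 these shares were 28% and 28.2%, compared with 4 and 4 members. The median difference of the members was -0.94 at day 4 and -0.18 at day 8 on the log2 scale, against 0.02 and -0.04 over all genes. All 10 members passed the filter on low values, a mean FPKM of at least 0.1, and none was under 0.1 in any sample.

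**Figure D1:**
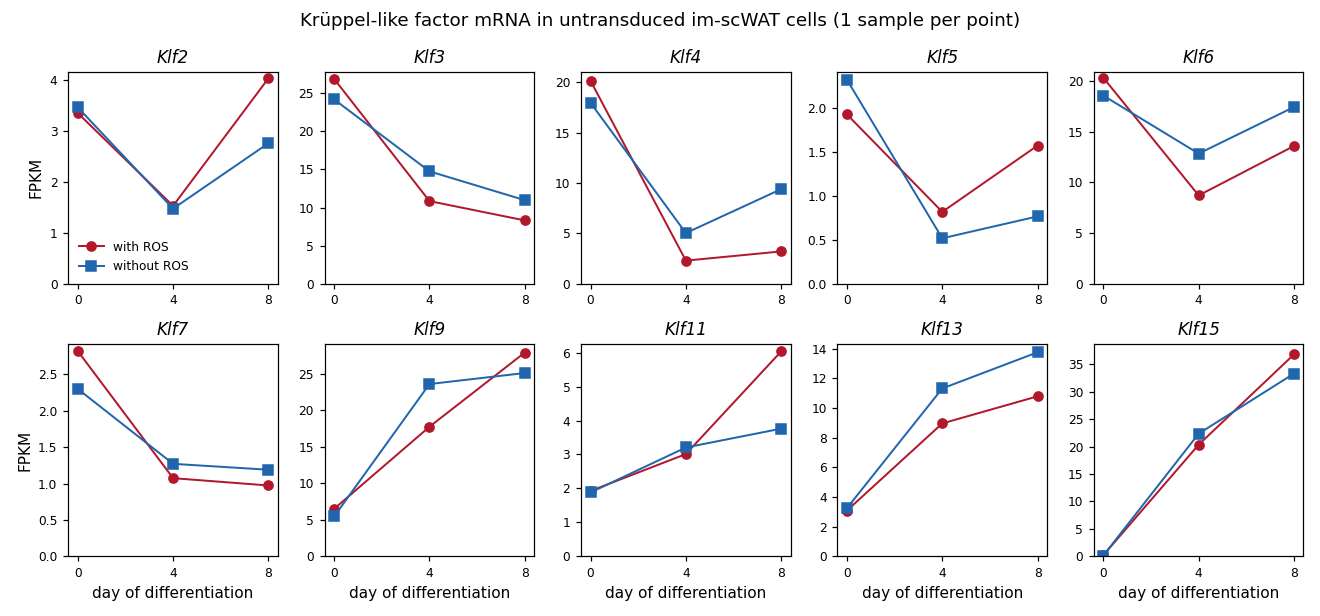
FPKM of each of the 10 genes (y axis, linear, from 0) at days 0, 4 and 8 (x axis) in untransduced im-scWAT cells with ROS (red circles) and without ROS (blue squares), 1 sample per point. Klf15 went from at most 0.204 at day 0 to at least 33.3 at day 8, and Klf4 was lower with ROS than without at days 4 and 8.

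Among the activators, Klf15, which is known to stimulate Pparg and the insulin-responsive glucose transporter gene Slc2a4, had FPKM of 0.204 and 0.130 at day 0 in the ROS and no-ROS arms. It reached 20.3 and 22.4 at day 4, and 36.8 and 33.3 at day 8. The groups did not overlap. How many of all genes separate in this way was not counted, so overlap is given here and below as a description. The mean FPKM of Klf15 was 128 times that of day 0 at day 4 and 210 times at day 8. The limma difference was 6.34 ± 0.19 at day 4 (SE; adjusted p = 0.0002) and 7.05 ± 0.19 at day 8 (adjusted p = 0.00015). At day 0 Klf15 rested on as few as 1388 mapped bases, and its log2 difference at day 8 ran from 4.95 to 7.66 over 16 alternatives, called in each. It was the scarcest of the 10 at day 0 and the most abundant at day 8 in both arms.

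Klf9, a glucocorticoid-inducible activator of Pparg, was at 6.49 and 5.45 at day 0, 17.7 and 23.6 at day 4, and 27.9 and 25.1 at day 8. Both later days lay above both day 0 samples, with differences of 1.76 ± 0.20 (adjusted p = 0.0034) and 2.13 ± 0.20 (adjusted p = 0.0017). Klf13, for which activation of Pparg has been described, was at 3.08 and 3.25 at day 0, 8.96 and 11.3 at day 4, and 10.8 and 13.8 at day 8. Its differences were 1.64 ± 0.13 (adjusted p = 0.0014) and 1.91 ± 0.13 (adjusted p = 0.00081). Klf11, a relative of the TGF-β-inducible factor Klf10 that binds SIN3A, was at 1.93 and 1.88 at day 0, 3.01 and 3.21 at day 4, and 6.04 and 3.76 at day 8. The samples of the 3 days did not overlap for Klf11. Its difference from day 0 did not pass the test at day 4 (0.68 ± 0.22, adjusted p = 0.0568) and did at day 8 (1.28 ± 0.22, adjusted p = 0.0082). At day 4 the adjusted p of Klf11 lay between 0.0211 and 0.2 over 16 alternatives, and 6 of them called it.

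Klf4, an activator of Cebpb in the first hours of induction, had FPKM of 20.2 and 18 at day 0. It was at 2.30 with ROS and 5.04 without at day 4, and at 3.22 and 9.40 in the same order at day 8. No later untransduced sample reached a day 0 sample, and Klf4 fell by 2.45 ± 0.17 at day 4 (adjusted p = 0.001) and fell by 1.77 ± 0.17 at day 8 (adjusted p = 0.0018). Klf5, which C/EBPβ and C/EBPδ induce and which activates Pparg, was at 1.93 and 2.32 at day 0, 0.818 and 0.518 at day 4, and 1.57 and 0.767 at day 8. It fell by 1.56 ± 0.17 at day 4 (adjusted p = 0.0034) and fell by 0.88 ± 0.17 at day 8 (adjusted p = 0.013). The day 8 call of Klf5 was lost without the no-ROS sample of day 0 (adjusted p = 0.0822), without the ROS sample of day 8 (0.0536) and without the no-ROS sample of day 8 (0.091), and also with ROS coded by its label at every day (0.0837). Klf6, which represses the preadipocyte gene Dlk1, was at 20.3 and 18.6, then 8.72 and 12.8, then 13.6 and 17.4. It fell by 0.87 ± 0.14 at day 4 (adjusted p = 0.0089), and the day 8 difference of -0.33 ± 0.14 did not pass (adjusted p = 0.103). Leaving out either day 0 sample took the adjusted p of Klf6 at day 4 to 0.0727 or 0.0561.

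Of the factors that oppose adipogenesis, Klf3, a CtBP-binding repressor of Cebpa, was the most abundant member at day 0 with FPKM of 26.9 and 24.2. It was at 10.8 and 14.7 at day 4 and 8.31 and 11 at day 8, without overlap with day 0. Klf3 fell by 1.00 ± 0.14 at day 4 (adjusted p = 0.0055) and fell by 1.41 ± 0.14 at day 8 (adjusted p = 0.0019). Klf7, which blocks adipocyte differentiation when overexpressed, was at 2.82 and 2.30, then 1.07 and 1.27, then 0.974 and 1.19. Klf7 fell by 1.06 ± 0.16 at day 4 (adjusted p = 0.007) and fell by 1.17 ± 0.16 at day 8 (adjusted p = 0.0044). Klf2, a repressor of the Pparg promoter in preadipocytes, was at 3.36 and 3.47 at day 0 and 1.53 and 1.48 at day 4, and then at 4.04 and 2.76. It fell by 1.13 ± 0.17 at day 4 (adjusted p = 0.0072), and at day 8 its samples lay on either side of day 0, with a difference of -0.03 ± 0.17 (adjusted p = 0.895). At day 4 the calls of Klf3, Klf7 and Klf2 each depended on single samples: Klf3 lost it without the ROS sample of day 0 (adjusted p = 0.0516), Klf2 without the no-ROS sample of day 0 (0.0547), and Klf7 without the ROS sample of day 0 (0.0526) or either day 4 sample (0.0601 and 0.073). At day 8, Klf7 lost its call without the ROS sample of that day (0.0536).

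**Figure D2:**
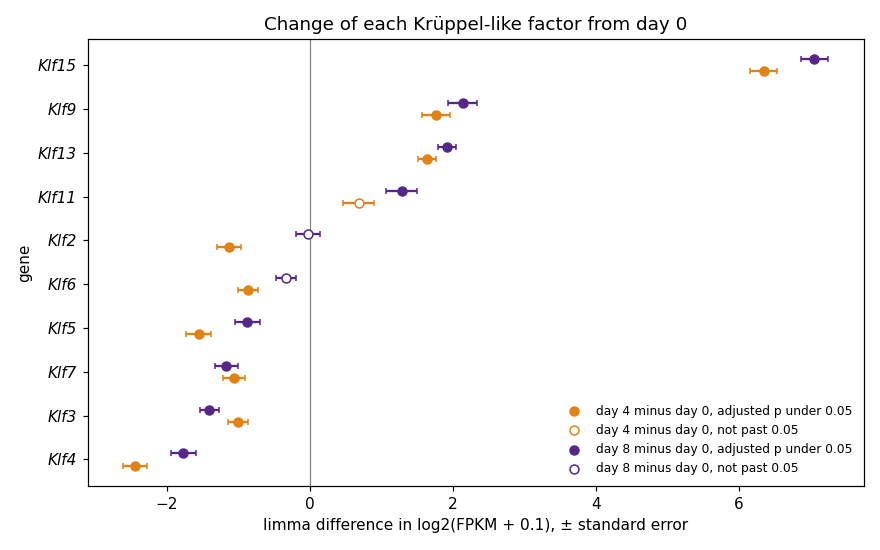
Limma differences from day 0 in log2(FPKM + 0.1) (x axis, with standard errors as bars) for each gene (y axis) at day 4 (orange) and day 8 (purple), 6 samples in the fit, with filled points where the adjusted p was under 0.05. Klf15, Klf9, Klf13 and Klf11 lie to the right of 0, and Klf2 and Klf6 are nearer to 0 at day 8 than at day 4.

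From day 4 to day 8 no member was called, while 1.07% of genes tested were called higher and 0.355% lower. At an unadjusted p under 0.05, 7 members passed, as did 4635 of the 15201 genes (30.5%). Klf2 had the smallest adjusted p, with a difference of 1.10 ± 0.17 (adjusted p = 0.0653), and its FPKM was 2.64 times the day 4 level with ROS and 1.87 times without. Klf4, Klf5, Klf6, Klf11 and Klf15 also had positive differences at this unadjusted level (0.54 to 0.71), and Klf3 a negative one (-0.40). The number of members called over this interval changed with the settings, from 0 to 3: Klf2, Klf6 and Klf15 passed with a pseudocount of 1, Klf2 and Klf6 with an intensity trend in limma, and Klf2 with a minimum mean FPKM of 1.

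As levels per length of exon, the make-up of the family was recast. At day 0 Klf3, Klf6 and Klf4 together held 77.3% and 76.4% of the summed FPKM of the 10 genes, and Klf9 and Klf15 together held 7.69% and 7.02%. At day 4 Klf9 and Klf15 held 50.5% with ROS and 47.7% without, and at day 8 they held 57.1% and 49.3%. The summed FPKM of the 10 genes itself was 87.1 and 79.5 at day 0, 75.3 and 96.3 at day 4, and 113 and 118 at day 8.

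**Figure D3:**
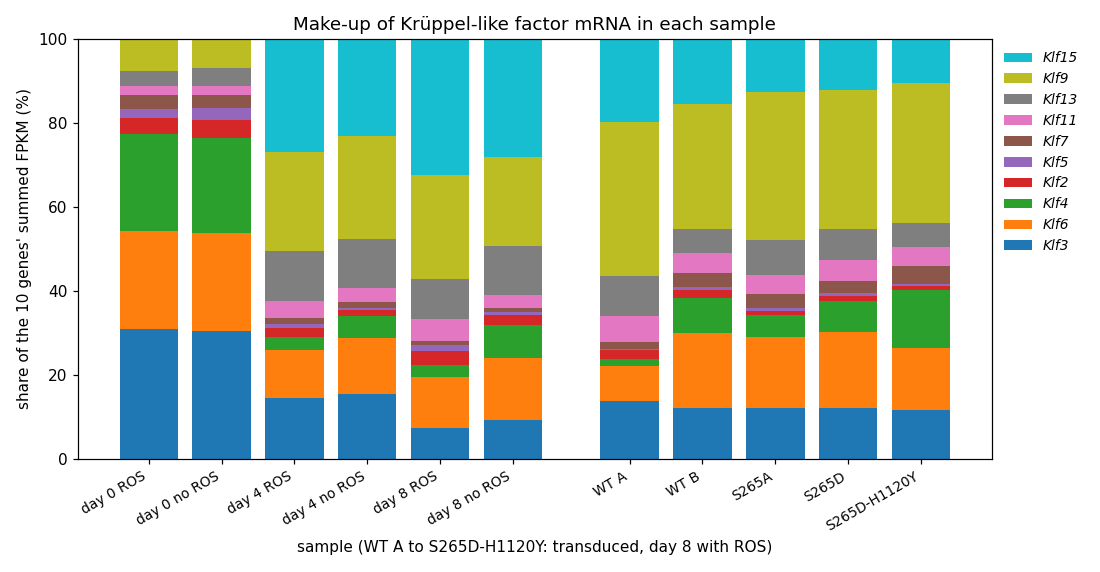
Share of the summed FPKM of the 10 genes (y axis, percent) taken by each gene in each of the 11 samples (x axis), 1 bar per sample. Klf3, Klf6 and Klf4 make up 77.3 and 76.4% of the day 0 bars, and Klf9 and Klf15 43.9 to 57.1% of the others.

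Whether ROS altered these genes was asked at days 4 and 8. Over both days limma called none of the 10, and 0% of the 15201 genes, although 5 members and 2851 genes (18.8%) had an unadjusted p under 0.05. Klf4 was the member furthest from 0, with a difference of -1.31 ± 0.17 (adjusted p = 0.157), followed by Klf5 with 0.76 ± 0.17 (adjusted p = 0.181). Klf15 was at 0.00 ± 0.19 (adjusted p = 0.992). The median of all genes was -0.13 in this contrast, and it moved by 0.12 under median-of-ratios scaling and by 0.14 under quantile normalization. Under these scalings Klf4 was at -1.18 and -1.10 and Klf5 at 0.87 and 1.08. Klf3 went from -0.42 to -0.29 and -0.29, and Klf6 from -0.46 to -0.33 and -0.34. Klf13 went from -0.34 to -0.22 and -0.21, and Klf7 from -0.24 to -0.13 and 0.06.

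The study's 2-fold criterion was applied between single samples and so without a replicate check. The filter, an FPKM of at least 0.1 in either sample, was set here, so gene counts differ from the study's. Klf4 was the member lower with ROS at day 4, where 4.51% of 15246 genes were lower and 2.2% higher. Its FPKM without ROS was 2.19 times that with ROS. At day 8, where 15.2% of 15536 genes were lower and 4% higher with ROS, Klf4 was again lower, with 2.92 times as much without ROS, and Klf5 was 2.05 times higher with ROS. The day 0 pair gave a ratio of 1.12 for Klf4 and 0.83 for Klf5. Klf3, Klf6, Klf7 and Klf13 were also lower with ROS at both days, with unscaled ratios of ROS over no ROS between 0.679 and 0.845. The median log2 difference of all genes with ROS was itself -0.13. How many of all genes were lower at both days was not counted. Klf11 had a ratio of 0.939 at day 4 and was 1.61 times higher with ROS at day 8. Beside Klf4, the summed FPKM of 6 preadipocyte markers (Pdgfra, Pdgfrb, Dlk1, Ly6a, Thy1, Cd34) was 191 with ROS and 248 without at day 4, and 139 and 571 at day 8. Most of each sum came from Ly6a, with 140.5 and 167 at day 4 and 107.5 and 494.9 at day 8 in the same order. Each of the 6 markers was lower with ROS at both days. The part of these genes in the level of Klf4 was not tested.

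The transduced samples were all taken at day 8 with ROS, so the untransduced ROS sample of day 8 is the nearest reference. Kdm3a, the gene targeted by the shRNA, had an FPKM of 20.4 and 17.9 in the WT samples (A, then B), 13.0 in S265A, 23.0 in S265D and 28.5 in S265D-H1120Y, against 21.1 untransduced, so a lower level of the mouse mRNA was not seen in every transduced sample. The study reported efficient depletion of endogenous JMJD1A by its shRNA, with immunoblot and qPCR against an empty vector. How much reads of the human cDNA add to the FPKM values was not tested, and the names used here are those of the labels. The knockdown and the human cDNA differ together from that single sample, and their effects cannot be told apart. All 5 lay above it for Klf3, Klf7 and Klf9 and all 5 below it for Klf2, Klf5, Klf11, Klf13 and Klf15. Over 15316 genes these shares were 29.6% above and 23.7% below. The FPKM of Klf15 was 19.0 and 19.7 in the WT samples (A, then B), 13.9 in S265A, 14.6 in S265D and 14.2 in S265D-H1120Y, against 36.8 in the untransduced sample. Klf9 was at 35, 37.5, 38.5, 39.2 and 45.6 in the same order, against 27.9, and was the most abundant member in all 5. Klf7 ran from 1.60 to 5.98, against 0.974, and Klf2 from 1.14 to 2.28, against 4.04. The Klf11 values of 5.03 to 6.01 were below 6.04 by a small margin. The 6 glucocorticoid-induced genes read beside them (Fkbp5, Tsc22d3, Per1, Zbtb16, Dusp1, Sgk1) were each lower in all 5 samples than in the untransduced one, with a summed FPKM of 98.7 to 117 against 279. Their part in the Klf levels was not tested.

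Comparing mutants with WT asks whether phosphorylation of S265 or demethylase activity bears on these genes. WT A and WT B were close for 6 members: their ratio (B over A) was 1.07 for Klf2 and Klf9, 1.16 for Klf3, 1.01 for Klf11, 0.795 for Klf13 and 1.04 for Klf15. For the other 4 WT B was far higher. Klf4 was at 1.52 in WT A and 10.6 in WT B, Klf5 at 0.124 and 1.03, Klf6 at 8.12 and 22.6, and Klf7 at 1.60 and 4.08. In WT A, Klf5 rested on 794 mapped bases. As ratios, S265A and S265D were nearer to WT B for these 4 genes: S265A was at 5.78, 0.575, 18.4 and 3.63 and S265D at 8.88, 0.743, 21.4 and 3.50 for Klf4, Klf5, Klf6 and Klf7.

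With WT taken as the average of both WT samples, no member reached 2-fold in S265A, where 3.49% of 15681 genes were higher and 6.4% lower, nor in S265D, where 4.11% of 15748 were higher and 4.56% lower. These counts turned on the choice of WT sample: without WT B, Klf4, Klf5, Klf6 and Klf7 were each at least 2-fold higher in S265A and in S265D, and without WT A none was. Over all genes the number past 2-fold in either direction also rose without WT B, from 1551 to 2984 in S265A and from 1365 to 3283 in S265D, and was 2045 and 1518 without WT A. The closest to the limit with both WT samples was Klf2 in S265A, with a ratio of 0.52 (1.14 against 2.20 ± 0.11, SD, n = 2). Klf15 was at 0.72 times WT in S265A and 0.754 times in S265D (WT 19.3 ± 0.5, SD, n = 2). In limma, where the WT pair gives the only residual degree of freedom among samples, none of the 10 was called in any mutant comparison and 0% of 15366 genes were, with 106, 84 and 200 genes at an unadjusted p under 0.05 for S265A against WT, S265D against WT and S265D-H1120Y against S265D, and no member among them. The SE of Klf4 in the first comparison was 1.27 on the log2 scale beside a difference of 0.50, so it could not be told from none. That of Klf15 was 0.47 beside a difference of -0.47. The Klf15 SE came mostly from limma's pooling over genes (2.98 prior and 1 residual degrees of freedom), not from its own close WT pair. Klf2, Klf9 and Klf11, whose WT samples were also close, had SEs of 0.47 too.

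S265D-H1120Y was compared with S265D, 1 sample each. Klf4 was the member past 2-fold, at 19.0 against 8.88, where 5.62% of 15760 genes were higher and 8.66% lower. This Klf4 level was the highest after day 0 and lay between those of the day 0 samples (20.2 and 18). Klf7 was 1.71 times S265D, at 5.98 the highest level of all 11 samples. The other 8 members lay between 0.742 and 1.16 times S265D. The summed FPKM of 7 immediate early genes (Fos, Fosb, Jun, Junb, Egr1, Ier2, Atf3) was read beside Klf4: it was 27.7 and 71.2 in the WT samples (A, then B), 75.8 in S265A, 72.9 in S265D and 188 in S265D-H1120Y, and 132 of the last came from Atf3. Without Atf3 the sums were 21.3, 50.6, 38.1, 52.8 and 55.9 in the same order, and over the 7 genes the median log2 difference between S265D-H1120Y and S265D was 0.07. Their part in the Klf4 level was not tested.

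**Figure D4:**
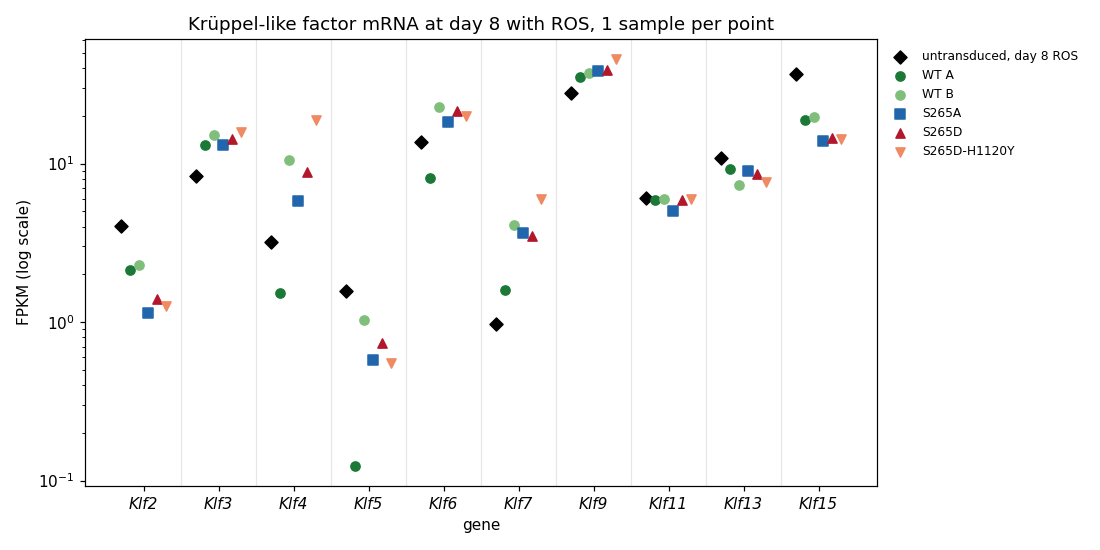
FPKM (y axis, log scale) of each gene (x axis) in the untransduced day 8 ROS sample (black diamonds) and the 5 transduced samples, 1 sample per point. WT A (dark green) is the lowest point for Klf4, Klf5 and Klf6, while for Klf9 the 5 transduced samples lie between 35 and 45.6.

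Factors upstream and downstream of the KLFs were read from lists made from general knowledge. For these and the later lists, the share of all genes tested gives the background. Against day 0 it was 25.1% higher and 22.7% lower at day 4, and 28% and 28.2% at day 8. Of 16 regulators of adipogenesis tested, which were transcription factors apart from the transmembrane protein Dlk1, 8 rose and 4 fell at day 4, and 10 rose and 3 fell at day 8, with a median log2 difference of 1.00 and 1.27. Cebpa, which Klf3 represses, rose most, from an FPKM of 0.789 and 1.04 at day 0 to 281 and 200 at day 8 (difference 7.88 ± 0.19, adjusted p = 0.00013). Pparg, the target of Klf5, Klf9 and Klf15, went from 18.9 and 19.3 to 140 and 231 (3.23 ± 0.17, adjusted p = 0.00046). Cebpb, the target of Klf4, was at 28.4 and 32.1 at day 0 and 87.4 and 77.4 at day 8 (1.44 ± 0.14, adjusted p = 0.002), and Dlk1, the target of Klf6, fell by 2.04 ± 0.26 (adjusted p = 0.0038). The part of the KLFs in the levels of Cebpa, Pparg, Cebpb and Dlk1 was not tested. Among 9 corepressors and partners of KLFs, Fhl3 fell at day 4 and Fhl3, Ctbp2, Ep300, Hdac1 and Hdac2 fell at day 8, while none rose. Fhl3, a LIM protein that binds Klf3, fell by 2.10 ± 0.22 at day 8 (adjusted p = 0.0023). The summed FPKM of these 9 genes was 394 and 405 at day 0 and 241 and 308 at day 8.

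All 7 genes known as Klf15 targets in fat, muscle or liver rose at both times, with a median log2 difference of 2.48 at day 4 and 3.47 at day 8. Slc2a4 rose most, from 0.0454 and 0.121 at day 0 to 92.8 and 88.2 at day 8 (8.98 ± 0.24, adjusted p = 0.00014). Prodh, the first enzyme of proline breakdown, went from 0.393 and 0.375 to 13.4 and 49.5 (5.74 ± 0.36, adjusted p = 0.00069). The branched-chain amino acid enzymes Bcat2 and Bckdha rose by 3.47 ± 0.14 (adjusted p = 0.00028) and 3.84 ± 0.18 (adjusted p = 0.00038). In the transduced samples, in which Klf15 was lower, the summed FPKM of the 7 genes was 392 to 585, against 570 in the untransduced ROS sample. The sum hid opposite moves. Bckdha (82.5 to 101.5, against 200.5), Bcat2 and Prodh were lower in every transduced sample than in the untransduced one. Acss2 (45.4 to 119.8, against 38.4), Gpt and Gpt2 were higher in every one, and Slc2a4 lay on both sides. The part of Klf15 in these levels was not tested. Of 6 glucocorticoid-induced genes, Fkbp5, Per1, Tsc22d3 and Zbtb16 rose and Sgk1 fell at both times, and Dusp1 fell at day 4. Of 7 immediate early genes, Egr1, Jun and Junb fell at day 4, and at day 8 against day 4 Egr1, Jun and Atf3 rose, so that their summed FPKM of 81.8 and 84.1 at day 0 became 40.3 and 44.8 and then 100.0 and 130.

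Markers of other cells were set beside the members. Of 6 preadipocyte or fibroblast markers, Pdgfrb, Thy1, Cd34 and Dlk1 (counted above as a regulator too) fell and Pdgfra rose at both times. Of 5 smooth muscle markers, Acta2, Tagln and Cnn1 fell and Des and Myh11 rose at both times. The 6 endothelial markers summed to 0.372 to 4.07, and Pecam1, with an FPKM of 0.965 to 3.46 in the transduced samples and at most 0.263 in the others, made up most of the highest sums. The 5 leukocyte markers found summed to 0.541 to 21.7, nearly all of it Cd68. In bulk RNA, fewer cells of a type and less RNA per cell cannot be told apart.

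The rest of the family was read in the same way. Of the 7 other Klf genes, Klf14 was listed at 0 throughout, Klf17 reached 0.0376, and Klf1, Klf8 and Klf12 stayed under 0.435. Klf10, a TGF-β-inducible relative of Klf11, was at 11 to 21.1 and was not called at any time. Klf16 was at 13.5 and 14.1 at day 0 and 7.99 and 10.1 at day 8, and fell by 0.93 ± 0.13 at day 4 (adjusted p = 0.0066) and fell by 0.61 ± 0.13 at day 8 (adjusted p = 0.018). Klf8 also fell at both times (-1.10 ± 0.23 and -1.42 ± 0.23, adjusted p = 0.017 and 0.007), at levels of at most 0.270. Thus 2 of the 5 other Klf genes tested fell at both times and none rose. Over all genes tested, 22.7% were called lower at day 4 and 28.2% at day 8, and 25.1% and 28% higher.

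Patterns over the 11 samples were compared by Pearson's r of log2(FPKM + 0.1), as a description, since the samples share lines, days and arms. Within the family, Klf15 and Klf13 had an r of 0.96, Klf9 and Klf11 0.94, and Klf4 and Klf6 0.88, and Klf3 ran opposite to Klf15 (-0.89) and Klf13 (-0.89). For the 3 members with the widest range, the most alike of 12416 genes were taken. For Klf15 they were Nr1h3 (r = 0.993), which encodes the oxysterol receptor LXRα, Serpina3c (0.992) and 2010003K11Rik (0.992). Klf15 was at most 0.204 in the day 0 samples and at least 13.9 in the others, so its r rests mostly on that step. For Klf4 they were Lrrc49 (0.970), Eda2r (0.964), a receptor of the TNF receptor superfamily, and Aff3 (0.959). For Klf5 they were Ier5 (0.931), an immediate early gene, Gm3258 (0.926) and Tomm34 (0.922).

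The gene positions and the transcripts behind the values bear on the levels. In mm9, the rows used span chr6:90412620-90425203 for Klf15, chr19:23215716-23241401 for Klf9, chr7:71031237-71083801 for Klf13, chr12:25336236-25347647 for Klf11, chr4:55540009-55545347 for Klf4, chr14:99697910-99712628 for Klf5, chr13:5860735-5869639 for Klf6, chr5:65194762-65221368 for Klf3, chr1:64082247-64167963 for Klf7 and chr8:74842961-74845553 for Klf2. The values count bases over the exons of these transcripts. Klf3, Klf5, Klf7, Klf13 and Klf15 have more than 1 annotated transcript. For Klf3, transcripts ending further upstream, at 65216045, were at 6.45 to 8.69 at day 0 against 24.2 to 27.6 for those reaching further, so the level of Klf3, and its rank, depends on the transcript. Every transcript of Klf3 was lower at day 8, with ratios to day 0 of 0.342 to 0.378. Of the 45 pairs of members, the mRNAs of Klf6 and Klf7 share the longest identical run, 26 bases, and the median of the longest runs was 14 bases.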

How the data were processed

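RNA-seq of 11 im-scWAT samples was used, grouped by the labels. The authors sequenced TruSeq libraries, mapped the reads with BWA against UCSC transcripts and the mm9 genome, refined the alignments locally, and counted each strand separately to give FPKM. The deposited files give, for 55419 transcripts on each strand, FPKM, its log10 and its log2, and the signal as mapped bases. FPKM was used, with mapped bases for depth. As these are bases and not reads, no count test was run.

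For each symbol the sense row marked as representative was taken. The 10 members, the gene lists and the alternatives were chosen with earlier results of these data known. Text names the members, the other Klf genes, genes of fixed lists and, for the 3 members with the widest range, the 3 most alike genes.

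Differences were tested with limma 3.58.1 (R 4.3.3) on log2(FPKM + 0.1), for genes with a mean FPKM of at least 0.1, with Benjamini-Hochberg adjustment at 0.05 (called). Fold changes on this scale understate those of low genes. The time-course fit (6 samples, day and ROS exposure) had 2 residual degrees of freedom, with any change of the ROS effect between days counted as spread. The transduced fit (5 samples) had 1. Comparisons of 1 sample a condition used a 2-fold ratio among genes at an FPKM of at least 0.1 in either sample. On simulated data 200 of 12298 genes were changed by a log2 of 3. The scripts recovered 200 in both fits, with 14 false calls for day 4 against day 0 and 7 for S265A against WT. The simulated noise was that of the day 0 pair in both fits, without a ROS effect. As the WT pair differed more than the day 0 pair, this checks the scripts and does not give the power of the transduced fit. Alternatives changed the pseudocount (0.01, 1), the filter (none, 1), the transcript, the scaling, the prior variance, the handling of ROS and the samples.

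Promoters are the 250 bases upstream of the start of the representative UCSC transcript in mm9, with the strand taken from GENCODE vM1. In all, 1416 of the coding genes were skipped. Tables and figures were made with Python 3.11.15, numpy 2.4.6, pandas 2.3.3 and matplotlib 3.10.9.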

Additional observations from a re-analysis of the deposited data

Results flagged for a closer look

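The FPKM ratio of ROS over no ROS was under 1 at day 4 and over 1 at day 8 for Klf9 (0.752 and 1.11), Klf11 (0.939 and 1.61) and Klf15 (0.91 and 1.11). In the untreated day 0 pair it was 1.19, 1.02 and 1.56, so that both ratios of Klf15 lay nearer to 1 than that of the pair. The log2 ratio of ROS over no ROS was larger at day 8 than at day 4 by 0.56 for Klf9, 0.76 for Klf11 and 0.28 for Klf15. Each condition had 1 sample, and the difference was not tested.

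Antisense reads over Klf9, outside the sense measurement, reached an FPKM of 0.186 in S265D-H1120Y and 0.107 to 0.186 in the 9 samples of days 4 and 8, against 0.0065 at day 0. As a share of the sense FPKM this was 0.1 to 0.12% at day 0 and 0.326 to 0.772% later.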

How the results depend on the processing

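No paired analysis by replicate number was possible because WT alone has a second sample and no other group carries a number. Pairing the untransduced samples by arm, with ROS by its label at every day, left 7 of the 8 members called at day 8 against day 0 (Klf5 was lost, adjusted p = 0.0837) and changed no other call of a member. Over the alternatives run, no result changed direction past its threshold. Of the single-gene results, 147 of day 4 against day 0 kept their side of the threshold, 6 (Klf11) passed it and 7 lost it, and of day 8 against day 0, 155 kept it and 5 (Klf5, Klf7) lost it. Day 8 against day 4 kept 154 and gained 6, and all 160 of ROS against no ROS and 109 of each mutant comparison stayed uncalled.

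The genes called at day 8 against day 4 (217) ranged most: 11 with a pseudocount of 0.01, 1606 with 1, 0 without a filter, 1069 with a mean FPKM of at least 1, 454 under median-of-ratios scaling, 1653 with an intensity trend, 2 with ROS by its label at every day, and 0 with the day 0 pair as the only replicates or without any 1 of the samples (0 to 0). The members called there went from 0 to 3 with a pseudocount of 1, 1 with a mean FPKM of at least 1, and 2 with a trend; the cause was not tested. Leaving out 1 sample gave 3423 to 7628 genes at day 4 against day 0 (7275) and 4645 to 8727 at day 8 against day 0 (8537), with fewer samples in each fit. Members past 2-fold against WT ranged from 0 (without WT A) to 4 (without WT B) in S265A and in S265D, and all genes from 2045 to 2984 in S265A and from 1518 to 3283 in S265D. Over all genes the 2-fold counts followed the filter: at day 8 with ROS, 2988 became 5030 without a filter and 1529 at an FPKM of at least 1. Each ROS condition and each mutant had 1 sample. The spread for ROS came from the untransduced samples and that for the mutants from the WT pair, with limma pooling over genes. Effects smaller than these spreads could not be resolved.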
